A study of Mus musculus with 6 samples.

Results

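TRAJ44, TRAJ43, TRAJ42, TRAJ40, TRAJ39, TRAJ38 and TRAJ37 are joining segments from the middle of the mouse T cell receptor α locus. They were chosen by name: a sequence counted when its J assignment listed only one of these 7 genes, of 53 Traj genes that were listed alone in any library. Of 3675059 sequences with a single Traj gene in the 6 libraries, 549741 (15.0%) used one of them, and all 7 segments were found in the Trav9 and Trav19 libraries and 6 in the Trav11 libraries. The study compared Traj usage to ask whether rearrangement in SKG thymocytes was shifted away from the distal segments. Libraries were made from the thymus, from pre-selection double positive thymocytes sorted as CD4+CD8α+TCRβ-CD69-CD5-, by PCR from cDNA with a forward primer for Trav9, Trav11 or Trav19 and a reverse primer in the constant region. The mice were WT BALB/c or SKG, a line with a spontaneous hypomorphic point mutation in Zap70, the kinase that carries the signal of the T cell receptor. According to the study's methods, both were bred from crosses of SKG to BALB/cJ mice and were kept as separate WT and SKG lines. The age, sex and number of mice behind each library were not given in the sources used here. There was 1 library for each genotype and amplicon, so every comparison below is of 2 libraries and not of the genotypes. Each library listed 41 to 49 Traj genes and between 249693 and 1587280 sequences. No RNA level of a marker gene was measured, so the labelled cell type was not checked against markers.

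The Tcra locus rearranges in double positive thymocytes by joining a Trav gene to a Traj segment. Early joins mostly use Traj segments at the side of the array that faces the Trav genes, and later rounds replace a join with an upstream Trav and a downstream Traj segment until the cell is selected or dies. Segments in the middle of the array are therefore reached both by early and by later rounds. A Traj segment encodes the end of the third complementarity-determining region, the hypervariable loop of the α chain, and the framework stretch after it, which in most segments opens with phenylalanine or tryptophan, glycine, any residue and glycine. A recombination signal of a nonamer, a spacer and a heptamer lies directly before the segment and is recognised by the RAG recombinase.

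The segments lie on the plus strand of chromosome 14 and span 7.89 kb in the NCBIM37 build, from chr14:54793365 at the start of TRAJ44 to chr14:54801252 at the end of TRAJ37. Each is annotated as a J gene segment of its own. The deposited lists hold no coordinates, and the reference is the C57BL/6 genome, not that of BALB/c. The 7 germline sequences follow because they are the items counted, each with the 28 bases before it that hold the recombination signal. The last 7 of these 28 bases are the heptamer, and the 12 bases in capitals encode the framework stretch.

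TRAJ44: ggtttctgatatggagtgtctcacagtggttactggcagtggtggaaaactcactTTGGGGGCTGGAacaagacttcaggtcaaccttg
TRAJ43: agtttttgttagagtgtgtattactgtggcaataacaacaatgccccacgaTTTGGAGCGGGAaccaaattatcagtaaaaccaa
TRAJ42: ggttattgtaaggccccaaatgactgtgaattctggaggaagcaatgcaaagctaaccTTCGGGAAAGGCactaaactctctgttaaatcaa
TRAJ40: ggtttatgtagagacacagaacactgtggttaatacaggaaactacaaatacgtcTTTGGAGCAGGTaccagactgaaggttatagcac
TRAJ39: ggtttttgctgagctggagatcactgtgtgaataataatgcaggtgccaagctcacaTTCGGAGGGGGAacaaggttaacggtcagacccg
TRAJ38: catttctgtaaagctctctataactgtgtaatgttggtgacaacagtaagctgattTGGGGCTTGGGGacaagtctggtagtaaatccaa
TRAJ37: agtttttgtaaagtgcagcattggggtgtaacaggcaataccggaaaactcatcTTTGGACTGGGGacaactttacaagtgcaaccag

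The segments were 57 to 64 bases long. The framework motif, searched on the plus strand as a phenylalanine or tryptophan codon followed by glycine, any codon and glycine, was found in 6 of the 7 segments (85.7%) and in 44 of the 59 named Traj segments of the annotation (74.6%). TRAJ44 held no such codon, and its capitals open with TTG at the matching in-frame place. The lists gave every TRAJ44 assignment, 31234 in all, the class open reading frame, while the assignments to TRAJ40, TRAJ39, TRAJ38 and TRAJ37 carried the class functional. A heptamer of CACTGTG stood before TRAJ40 and TRAJ39, that is 2 of 7 (28.6%) against 16 of 59 segments (27.1%). TRAJ37 had the heptamer TGGGGTG. All 7 heptamers ended in GTG, as did 48 of 59 (81.4%).

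Shares are given as percent of the productive sequences of a V gene. A V gene had to be listed alone, apart from Trav11 and Trav11d, which the lists mostly could not separate and which are called Trav11 here. Besides Trav11 and Trav19, 6 Trav9 genes had at least 1000 productive sequences in both Trav9 libraries. Trav9-1 (715 in WT and 458 in SKG) and Trav9d-1 (74 and 131) had fewer and were only counted. The Trav9 genes are close copies of each other, so the assignment of a sequence among them can rest on few bases and is uncertain to that extent. Wilson 95% intervals of a segment's share reached at most 0.169 percentage points to either side, and they cover counting error only. Sequences of the same rearrangement are not independent, so the variance in each test was scaled by a factor between 25.9 (Trav9d-2) and 99.8 (Trav19), estimated from how unevenly the productive share of the segments changed between the 2 libraries. The interval of a summed share scaled in this way reached up to 1.87 points to either side. The factor was not estimated from the segment shares themselves, whose spread between mice 1 library per genotype and amplicon cannot show. Copies of a rearrangement that fall in both classes would lower the factor, and true changes of the productive share would raise it.

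The 7 segments together made up a part of the repertoire that varied between V genes. In WT they accounted for 20.8% of Trav9-3, 18.7% of Trav9-4 and 15.3% of Trav9-2 sequences, and for 14.5% of Trav9d-4, 12.3% of Trav19, 11.9% of Trav11, 11.4% of Trav9d-3 and 7.45% of Trav9d-2 sequences. In SKG the values were 23.6% for Trav9-3, 21.8% for Trav9-4, 19.5% for Trav9-2, 14.1% for Trav19, 12.6% for Trav9d-4, 11.9% for Trav11, 10.8% for Trav9d-3 and 9.19% for Trav9d-2. The same 3 Trav9 genes led the order in both genotypes, and Trav9d-2 was last in both. In the reference, Trav9d-2 ends 1281 kb, Trav9d-3 1253 kb and Trav9d-4 1190 kb before TRAJ44, Trav9-2 582 kb, Trav9-4 497 kb and Trav19 328 kb. Trav9-3 was not placed there.

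Of the 14 pairs of neighbours in these orders, 4 differed at an adjusted p under 0.05 in the quasi-binomial comparison. In WT, Trav9-3 lay above Trav9-4 by 2.11 points (quasi-binomial adjusted p = 0.0144), Trav9-4 above Trav9-2 by 3.39 points (0.000178) and Trav9d-3 above Trav9d-2 by 3.90 points (4.37e-07). In SKG, Trav9-2 lay above Trav19 by 5.36 points (0.00469). The differences between neighbours from Trav9-2 down to Trav9d-3 in WT were within their scaled spread, as were those from Trav9-3 to Trav9-2 and from Trav19 to Trav9d-2 in SKG. The Trav9 genes of a genotype came from the same library and are not replicates.

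**Figure D1:**
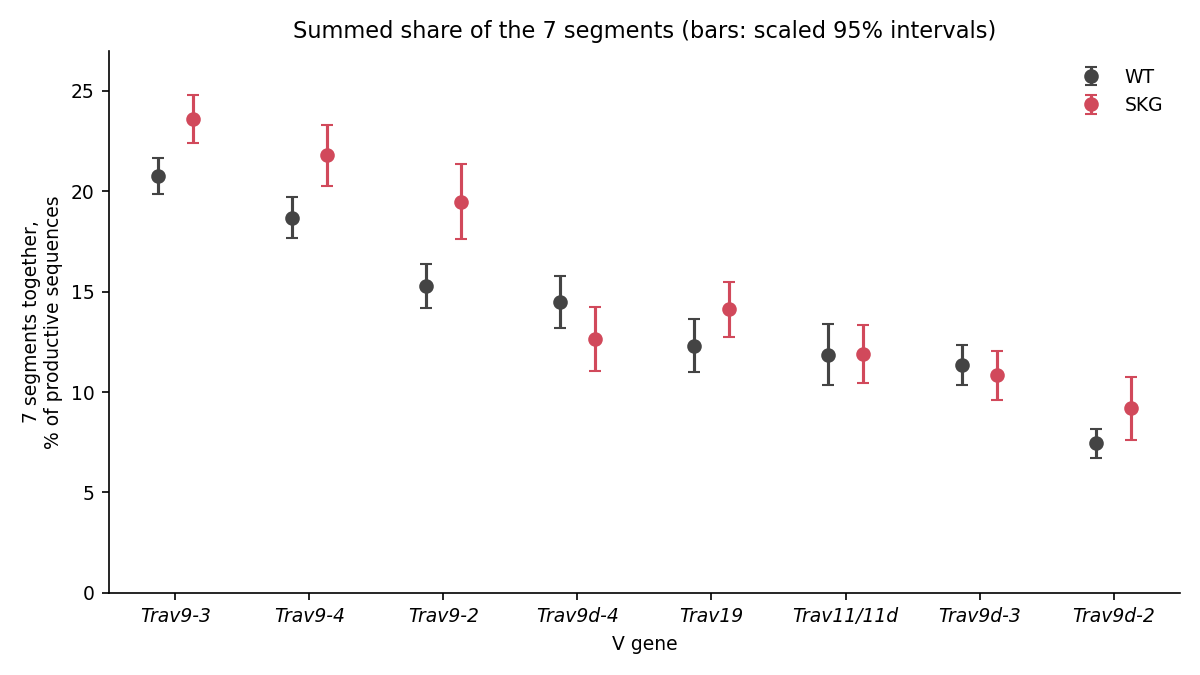
The 7 segments together as percent of productive sequences (vertical axis) for each V gene (horizontal axis, in the order of the WT values), for WT and SKG libraries, with 95% intervals scaled for non-independent sequences. The intervals of the genotypes do not overlap for Trav9-3, Trav9-4 and Trav9-2, where SKG is higher, and overlap for the other V genes.

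With Trav9-2, Trav9-3 and Trav9-4 the SKG libraries had the higher summed share. For Trav9-2 it went from 15.3% (21614 of 141402 sequences) in WT to 19.5% (11789 of 60511) in SKG, a difference of 4.20 points with a scaled SE of 1.11 (quasi-binomial adjusted p = 0.000729). For Trav9-4 the difference was 3.11 ± 0.933 points (scaled SE, quasi-binomial adjusted p = 0.00185), and for Trav9-3 it was 2.82 ± 0.767 points (0.000828). These V genes had the highest shares of the 7 segments already in WT. With the largest factor of any V gene used for all of them, none of these 3 sums passed (quasi-binomial adjusted p = 0.110 for each). Among unproductive sequences Trav9-2 and Trav9-4 did not pass either.

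For the other V genes the summed share did not pass the test. Trav19 differed by 1.81 points (95% interval -0.0919 to 3.71, quasi-binomial adjusted p = 0.101) and Trav9d-2 by 1.74 points (0.0150 to 3.47, 0.0740), both higher in SKG. Trav9d-4 differed by -1.86 points (-3.92 to 0.196, 0.108) and Trav9d-3 by -0.521 points (-2.07 to 1.03, 0.586). Trav11 had 16341 of 137708 sequences in WT and 18202 of 152878 in SKG, a difference of 0.0398 points whose interval of -2.05 to 2.13 leaves room for changes of that size (0.970). Among unproductive sequences Trav11 and Trav9d-4 did pass, as described with the functionality classes.

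**Figure D2:**
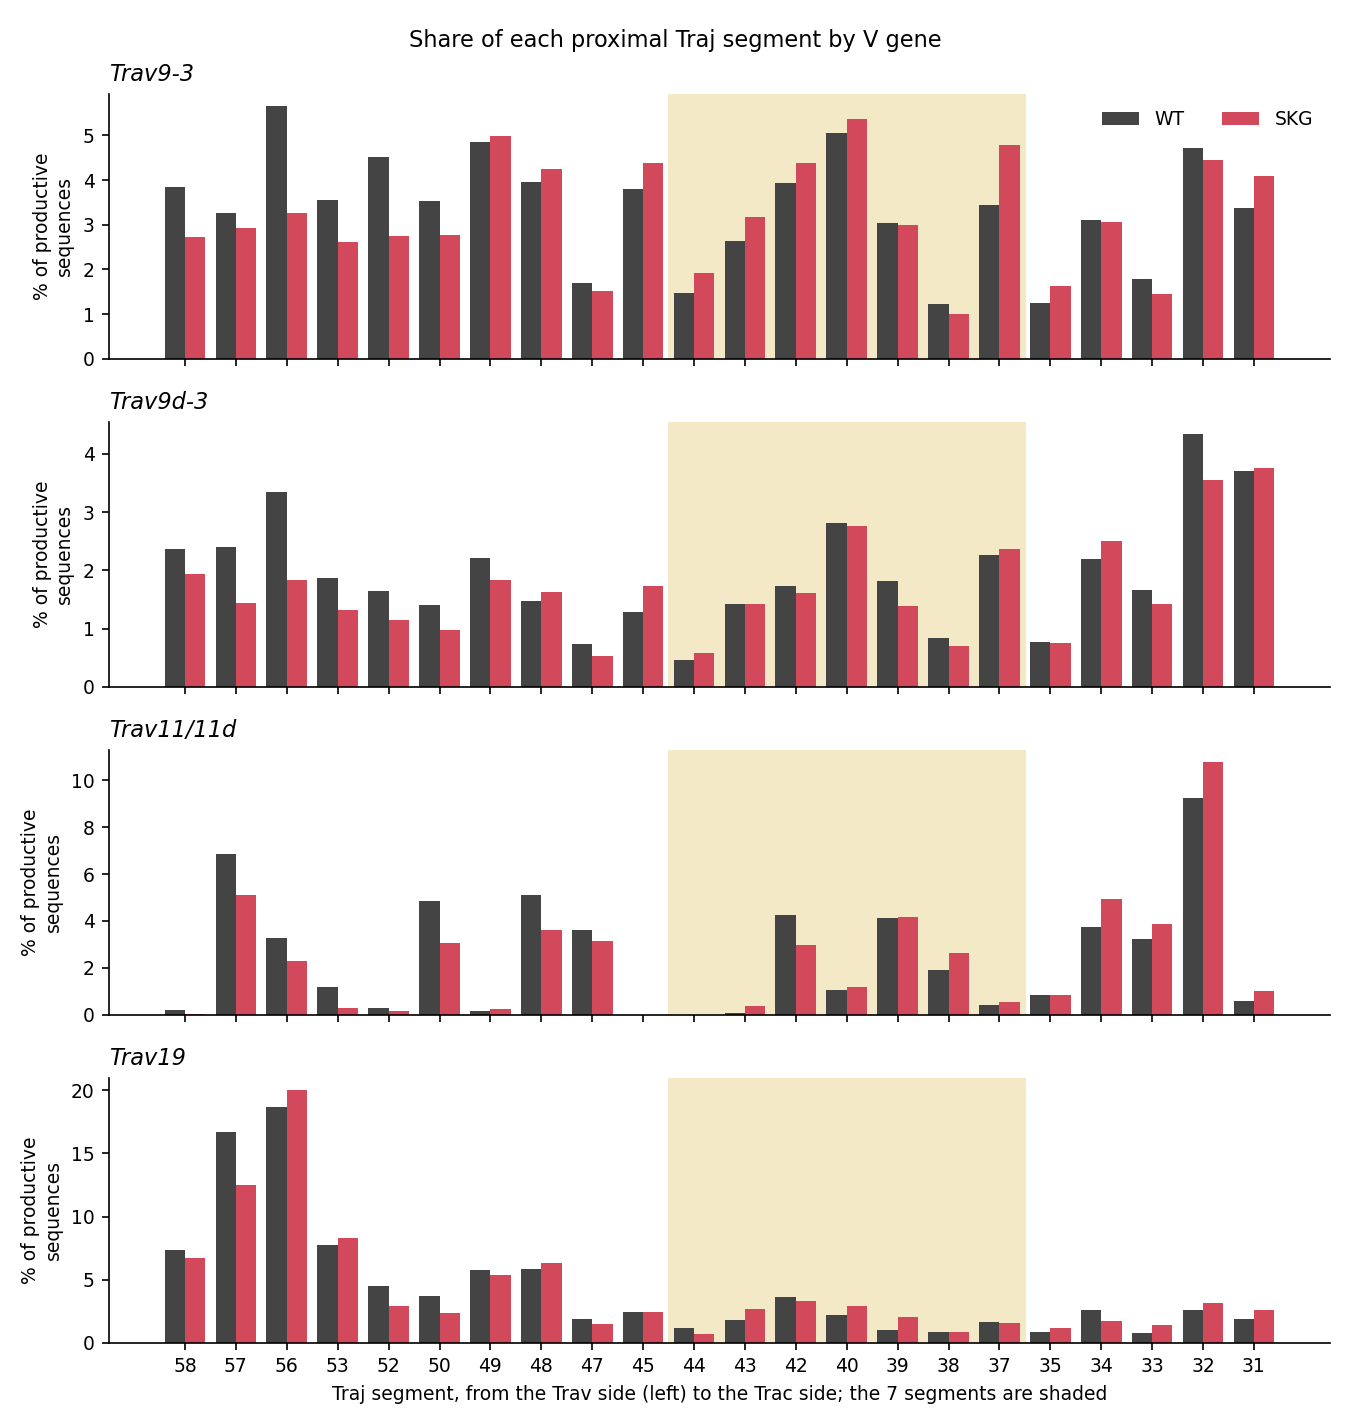
Share of each Traj segment from 58 to 31 (horizontal axis, from the side of the Trav genes to the side of the constant region) as percent of productive sequences (vertical axis, with its own scale in each panel) for 4 V genes, in WT and SKG. In the shaded middle region Trav9-3 and Trav9d-3 use all 7 segments with TRAJ40 highest, Trav11 lacks TRAJ44 and nearly lacks TRAJ43, and Trav19 stays under 4% for each.

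Taken by segment, TRAJ40 was the most used of the 7 with most Trav9 genes and TRAJ42 with Trav19. TRAJ40 had 5.06% of Trav9-3 sequences in WT and 5.37% in SKG, its highest shares, and 1.06% and 1.19% of Trav11 sequences, its lowest. The median share of TRAJ40 over the 8 V genes was 3.25% in WT and 3.07% in SKG. The SKG share exceeded the WT share in 6 of 8 V genes (195 of 336 pairs over all Traj segments). The log2 ratios were -0.22 to 0.53, and no pair passed a threshold.

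TRAJ42 was used by every V gene and had its highest WT share with Trav11 (4.25%) and its lowest with Trav9d-2 (1.05%). With Trav11 its share was 2.98% in SKG, 0.701 of the WT share (log2 ratio -0.512, scaled 95% interval -0.999 to -0.0244, quasi-binomial adjusted p = 0.194). With Trav19 it was 3.61% in WT and 3.31% in SKG. TRAJ40, TRAJ37 and TRAJ43, by contrast, all had their lowest WT shares with Trav11.

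TRAJ43 was nearly absent from Trav11 sequences, with 0.0828% in WT (114 sequences) and 0.362% in SKG (554). The ratio of 4.38 was the highest of the 7 segments in any V gene, but its scaled interval ran from -0.45 to 4.70 on the log2 scale (quasi-binomial adjusted p = 0.345). The log2 ratio fell to 0.91 among unproductive sequences and was 1.42 over every class. With Trav9-2 the share of TRAJ43 went from 2.07% (2931 sequences) in WT to 3.72% (2254) in SKG, a log2 ratio of 0.85 (interval 0.38 to 1.31, quasi-binomial adjusted p = 0.00996). This pair passed both the fold and the p threshold. Among unproductive sequences its log2 ratio was 0.90 but did not pass the quasi-binomial test (adjusted p = 0.441). TRAJ43 made up 1.65 of the 4.20 points by which the summed share of Trav9-2 differed. It was 3.07% and 4.01% with Trav9-4, 2.64% and 3.17% with Trav9-3, 1.82% and 2.70% with Trav19, and 1.17% and 0.826% with Trav9d-2 in WT and SKG. With Trav19 it passed over every class (log2 0.65, quasi-binomial adjusted p = 0.0174). SKG was higher in 6 of 8 V genes (195 of 336 pairs over all Traj segments).

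TRAJ37 was higher in SKG than in WT with Trav9-3 and Trav9-4. Its share of Trav9-3 sequences was 3.43% in WT and 4.78% in SKG (ratio 1.39, log2 0.48, interval 0.23 to 0.73, quasi-binomial adjusted p = 0.00727). Its share of Trav9-4 sequences was 2.51% and 3.68% (ratio 1.47, log2 0.55, interval 0.20 to 0.91, quasi-binomial adjusted p = 0.0402). Both ratios stayed under the fold threshold of 1.5. Among unproductive sequences neither passed the quasi-binomial test, with log2 0.33 for Trav9-3 (adjusted p = 0.441) and 0.38 for Trav9-4 (adjusted p = 0.590). TRAJ37 accounted for 1.35 of the 2.82 points of the difference for Trav9-3 and 1.17 of the 3.11 points for Trav9-4. It was higher in SKG in 7 of 8 V genes, the highest count among the 7 segments, with Trav19 as the exception (1.64% in WT and 1.57% in SKG). Over all Traj segments 195 of 336 pairs were higher in SKG. With Trav9d-4 TRAJ37 was nearly level (2.47% and 2.49%) and turned over every class (log2 -0.15), and with Trav9d-3 its log2 ratio was 0.06. The Trav9 genes share 1 pair of libraries, so they are not separate confirmations. Trav11 sequences used it at 0.439% and 0.552%.

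TRAJ39 had its highest SKG over WT ratio with Trav19, where 13 of 42 Traj segments were at 1.5 or more toward SKG. It had 0.992% of Trav19 sequences in WT (2326) and 2.01% in SKG (5065), a ratio of 2.03 (log2 1.02, interval 0.32 to 1.72) with a quasi-binomial adjusted p of 0.0581, just outside the threshold. Over every class the log2 ratio was 0.77 and passed (quasi-binomial adjusted p = 0.0372), and among unproductive Trav19 sequences it was 0.38 and did not (adjusted p = 0.848). Trav11 had the highest shares of TRAJ39 of any V gene in both genotypes, 4.12% in WT and 4.19% in SKG. With Trav9d-3 it was 1.82% and 1.39%.

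The least used of the 7 was TRAJ38 or TRAJ44 in each of the 16 combinations of V gene and genotype. TRAJ38 had a median share over V genes of 0.993% in WT and 1.002% in SKG, and was highest with Trav9d-4 in WT (1.98%) and with Trav11 in SKG (2.63%). With Trav9d-4 it was 1.02% in SKG, a ratio of 0.516 (log2 -0.95, interval -1.73 to -0.18, quasi-binomial adjusted p = 0.125). The same pair had a log2 ratio of -1.75 among unproductive sequences and, over every class, -1.26 with a quasi-binomial adjusted p of 0.00311.

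TRAJ44 was not listed in any Trav11 sequence. The count was 0 of 137708 productive sequences in WT, which allows a share of up to 0.00218%, and 0 of 152878 in SKG, which allows up to 0.00196%. These bounds take sequences as independent and would be wider at the Trav11 factor of 78.9. No unproductive Trav11 sequence listed it either. The other V genes used it at 0.274% (Trav9d-2) to 1.47% (Trav9-3) in WT and 0.419% (Trav9d-2) to 1.91% (Trav9-3) in SKG. With Trav19 it was 1.21% in WT and 0.728% in SKG, a ratio of 0.601 (log2 -0.74, interval -1.58 to 0.11, quasi-binomial adjusted p = 0.305). With Trav9d-2 the ratio was 1.53 on 350 and 142 sequences (log2 0.61, interval -0.81 to 2.04). Both directions turned among unproductive sequences, where the log2 ratios were 0.59 for Trav19 and -1.12 for Trav9d-2.

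**Figure D3:**
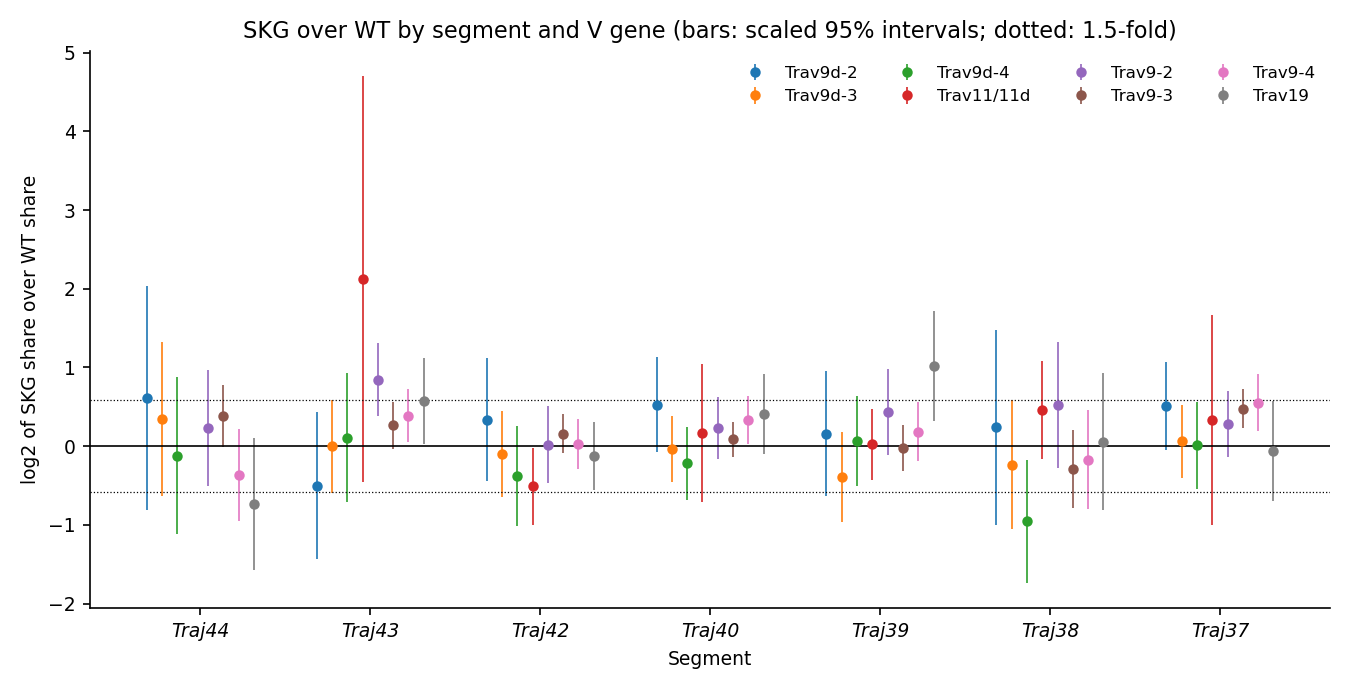
Log2 ratio of the SKG share over the WT share (vertical axis) for each segment (horizontal axis) and V gene (colours), with scaled 95% intervals and dotted lines at a ratio of 1.5 in either direction. Most points lie between the dotted lines. TRAJ43 with Trav11 is the highest point, with the widest interval, and TRAJ38 with Trav9d-4 is the lowest.

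Over all V genes, 55 pairs of a segment and a V gene had at least 50 sequences in the 2 libraries together. A ratio of 1.5 or more toward SKG was found in 4 of them (7.27%) and over all Traj segments in 11.3% of 336 pairs. These 4 were TRAJ43 with Trav11 (where 4 of 36 segments were so), TRAJ43 with Trav9-2 (8 of 43), TRAJ39 with Trav19 (13 of 42) and TRAJ44 with Trav9d-2 (4 of 43). A ratio of 1.5 or more toward WT was found in 2 pairs (3.64%), against 11.9% of all pairs. These were TRAJ38 with Trav9d-4 (where 6 of 43 segments were so) and TRAJ44 with Trav19 (8 of 42). Both shares were below those over the whole array. At an adjusted p under 0.05 in the quasi-binomial comparison, 3 of the 55 pairs were higher in SKG (5.45%, against 1.49% of all pairs) and 0 were lower, against 5.06% of all pairs. At an unadjusted quasi-binomial p under 0.05 there were 7 higher pairs (12.7%, against 11.9% of all pairs) and 2 lower pairs (3.64%, against 10.4%). The median log2 ratio was 0.16 over the 55 pairs and 0.07 over all 336, and 37 of 55 against 195 of 336 were above 0.

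The segments beside the group are given for comparison. By the number of sequences, the 2 flanking segments on the Trav side were TRAJ48 and TRAJ49 and those on the other side TRAJ32 and TRAJ34. Of their 32 pairs with a V gene, 0 were higher in SKG at a ratio of 1.5, 1 was lower (TRAJ34 with Trav19, 2.57% in WT and 1.70% in SKG) and 0 passed the quasi-binomial adjusted p (3 at an unadjusted p under 0.05). With Trav9-2, where TRAJ43 was higher in SKG, TRAJ49 was at 4.57% in WT and 3.21% in SKG and TRAJ48 at 4.24% and 3.60%. With Trav11, TRAJ32 held 9.24% and 10.8%, against at most 4.25% for any of the 7 segments.

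The change from WT to SKG was compared between amplicons for Trav19, Trav11 and Trav9d-3, for the sum and for each segment, 22 comparisons in all. None reached an adjusted p under 0.05 in the quasi-binomial comparison of log odds, and 2 had an unadjusted p under 0.05. The closest was TRAJ39, whose log odds changed by 0.72 with Trav19 and by -0.28 with Trav9d-3, a difference of 0.99 ± 0.33 (scaled SE, quasi-binomial p = 0.00230, adjusted p = 0.0507). For TRAJ39 with Trav19 against Trav11 the difference was 0.70 ± 0.30 (quasi-binomial adjusted p = 0.224). Among unproductive sequences these differences were 0.07 and -0.06 (quasi-binomial adjusted p = 0.971 for each). For the sum of the 7 segments the differences were 0.21 ± 0.12 for Trav19 against Trav9d-3, 0.15 ± 0.13 for Trav19 against Trav11 and 0.06 ± 0.13 for Trav11 against Trav9d-3.

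How the log2 shares of the 7 segments went together over the 16 combinations of V gene and genotype depended on Trav11, in which TRAJ44 was at the value added to a count of 0. With Trav11 included, those of TRAJ44, TRAJ43, TRAJ40 and TRAJ37 went together, with Pearson's r between 0.84 and 0.92 for each pair, and TRAJ39 went with TRAJ38 (r = 0.81), while TRAJ44 and TRAJ38 ran opposite (r = -0.56). TRAJ42 went most with TRAJ39 (0.64). Over the 14 combinations without Trav11, r was above 0 for every pair of the 7 segments, from 0.34 (TRAJ38 with TRAJ37) to 0.92 (TRAJ40 with TRAJ39). TRAJ44 with TRAJ38 turned to 0.65, and the pairs among TRAJ44, TRAJ43, TRAJ40 and TRAJ37 ran from 0.49 to 0.82. Outside the group the most alike segments were TRAJ45 for TRAJ44 (r = 0.99) and for TRAJ40 (0.82), TRAJ49 for TRAJ43 (0.93), TRAJ48 for TRAJ42 (0.90), TRAJ33 for TRAJ39 (0.86), TRAJ34 for TRAJ38 (0.89) and TRAJ31 for TRAJ37 (0.93). Of Trav11 sequences 0 in WT and 1 in SKG listed TRAJ45. Without Trav11 the r values of these pairs were 0.66 (TRAJ37 with TRAJ31) to 0.90. The points share libraries, primers and depth, and 12 of the 16 come from the Trav9 libraries, so these are descriptions only.

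The share of sequences listed as productive varied among the 7 segments, which is a description and was not tested. TRAJ38 had a lower productive share than the V gene's sequences as a whole in 13 of 16 combinations, by a median of 6.79 points, at place 3 from the lowest of 41 Traj segments. In Trav19 of WT, 42.4% of TRAJ38 sequences were productive against 55.5% of all, and in Trav9-2 of WT 48.7% against 67.3%. TRAJ44, which lacks the phenylalanine or tryptophan codon, was at place 37 from the lowest of 41. It was listed as productive more often than all segments in 10 of 14 combinations, by a median of 4.33 points. This reached 82.2% against 55.5% in Trav19 of WT, and was 54.8% against 68.2% in Trav9d-2 of WT. TRAJ39 was above in 13 of 16 combinations and TRAJ40 in 12 of 16, by medians of 2.62 and 2.10 points. That put them at places 31 and 29 from the lowest of 41, so neither stood out. Outside the group TRAJ17, TRAJ47 and TRAJ9 were below in only 1, 2 and 2 of 16. TRAJ42 was evenly split at 8 and 8, with a median of 0.296 points. TRAJ43 was also split at 8 and 8 and ran from 31.8% productive in Trav11 of WT to 79.8% in Trav9-2 of SKG. Against all sequences of the V gene, TRAJ44 ranged most, from -13.4 to 26.6 points, and TRAJ43 from -23.4 to 9.15. TRAJ37 was below in 10 of 16, at place 15 from the lowest.

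**Figure D4:**
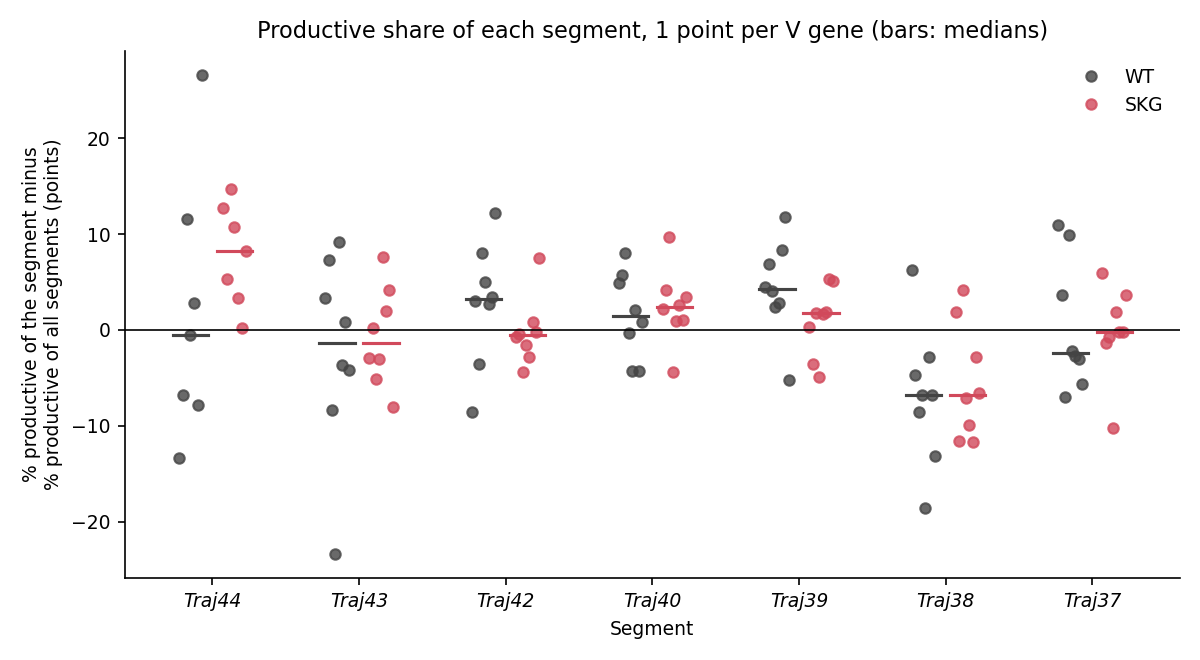
Percent productive among the sequences of each segment minus percent productive among all sequences of the same V gene and library (vertical axis, percentage points), with 1 point for each V gene, for WT and SKG, and bars at the medians. TRAJ38 lies mostly below 0, TRAJ39 and TRAJ40 mostly above 0, and the other segments spread over both sides.

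As a sum, the 7 segments differed between the classes by at most 2.53 points within a library. The widest gap was in SKG Trav11, with 11.9% of productive and 14.4% of unproductive sequences. In WT Trav11 it was 11.9% and 10.9%. So the Trav11 libraries were level among productive sequences but 3.56 points apart among unproductive ones (quasi-binomial adjusted p = 0.0290). In Trav9d-4 the unproductive share was 15.1% in WT and 11.3% in SKG (-3.82 points, quasi-binomial adjusted p = 0.0300). In Trav9d-3 the direction turned, from -0.521 points among productive to 1.42 points among unproductive sequences. For Trav9-2 the unproductive difference was 2.12 points (quasi-binomial adjusted p = 0.232) and for Trav9-4 1.38 points (0.302). An error in a copy of a rearrangement can move it to the other class, so the classes are not independent and the gap between them was not tested.

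Alleles were listed in more than one form for TRAJ43 and TRAJ42. The assignment can name allele 1, allele 2 or both, the last when a sequence fits each equally well. Over every class, allele 1 alone was given for 28240 of 33494 TRAJ43 sequences in WT Trav9 (84.3%) and 15312 of 19190 in SKG Trav9 (79.8%). It was given for 7549 of 8299 in WT Trav19 (91.0%) and 10910 of 12044 in SKG Trav19 (90.6%). In Trav11 it was given for 360 of 362 (99.4%) in WT and 995 of 1075 (92.6%) in SKG. Allele 2 alone stayed rare for TRAJ43, from 0.276% in WT Trav11 to 2.14% in SKG Trav9. Most other sequences listed both, 14.4% in WT Trav9, 18.1% in SKG Trav9, 7.71% in WT Trav19 and 7.95% in SKG Trav19.

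**Figure D5:**
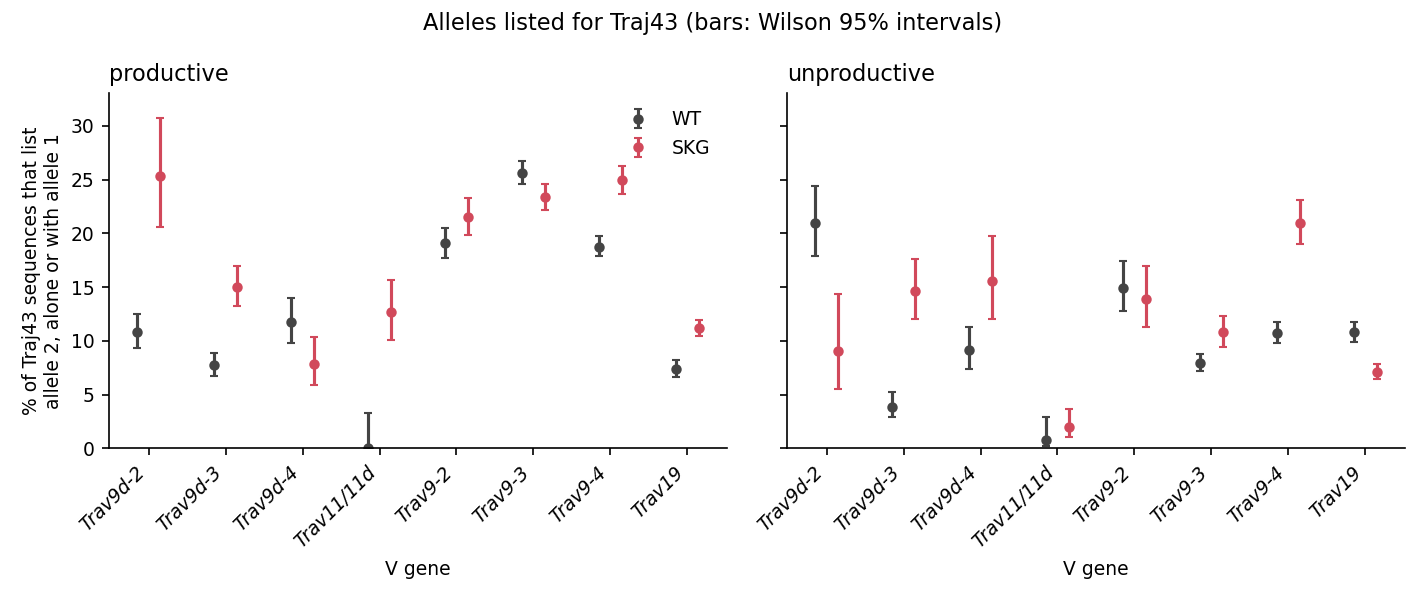
Percent of TRAJ43 sequences whose assignment lists allele 2, alone or with allele 1 (vertical axis), by V gene (horizontal axis), genotype and functionality class, with Wilson 95% intervals that cover counting error only. Among productive sequences Trav9-2, Trav9-3 and Trav9-4 lie between 18.8% and 25.6%, above Trav19 in both genotypes. Trav9d-2 also lies above Trav19 in both genotypes, and in SKG (25.4%) it falls within that range. Trav9d-3 lies above Trav19 in SKG, but in WT it is level with it (7.71% against 7.39%, with overlapping intervals).

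By V gene, allele 2 alone or with allele 1 was listed for 25.6% of productive TRAJ43 sequences of Trav9-3 in WT and 23.4% in SKG, and for 18.8% and 24.9% with Trav9-4. It was 7.39% and 11.2% with Trav19. For Trav11 it was 0 of 114 in WT and 12.6% of 554 in SKG. The 0 of 114 allows a share of up to 2.63% if sequences are taken as independent. They are not, and with the Trav11 factor of 78.9 the bound is far wider, so no difference can be read from it. The classes differed in either direction. In WT the unproductive value was 7.94% for Trav9-3, below its productive value. It was 20.9% for Trav9d-2 and 10.8% for Trav19, above their productive values of 10.8% and 7.39%. TRAJ42 showed almost none of this. Allele 1 alone was given for 99.7% to 99.9% of TRAJ42 sequences in each library, and allele 2 alone for 87 of 44184 in WT Trav9 (0.197%), 48 of 22851 in SKG Trav9 (0.210%) and 6 of 9261 in WT Trav11 (0.0648%). The other 5 segments were listed with allele 1 only.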

How the data were processed

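Data were 6 lists of sequences, 1 for each genotype and amplicon. According to the study's methods, the authors built clonal sequences from MiSeq read pairs with MiXCR, used cutadapt 1.13 to cut off primers, kept 1 copy of identical sequences and took V and J assignments from IMGT/HighV-QUEST at its defaults. The labels name genome build mm10, and give the molecule as genomic DNA but describe RNA and cDNA. The deposited lists hold an identifier, a functionality class, a V and a J assignment. The deposited identifiers only name sequences, and no read counts were used. Removal of duplicates evens out abundant rearrangements and keeps copies with errors, so a share is neither of reads nor of cells.

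Sequences were counted per Traj gene in Python 3.11.15 with pandas 2.3.3 and scipy 1.17.1. Productive sequences with a single Traj gene were the main setting. Libraries were compared by a two-sided quasi-binomial test of log odds, with Benjamini-Hochberg adjustment over all Traj segments and V genes, over the 8 sums, over the 14 neighbours or over the 22 comparisons between amplicons. The variance factor of a V gene is the Pearson chi-square, divided by its degrees of freedom, from a logistic fit of productive against unproductive sequences on segment and library (only segments with 50 sequences or more in both libraries). Ratios had 0.5 added to each count. Of 3675237 sequences, 9 listed no Traj gene and 8 listed one of the 7 segments beside another. The V gene and library with the fewest productive sequences had 33917 of them, so that 3 sequences are 0.00885%. Reference sequences came from NCBIM37 with the GENCODE M1 annotation, named through RefSeq. The named genes were the 7 segments, the 2 flanking segments with most sequences on each side within 5 J numbers, and the most alike segment outside for each. The members and lists were chosen with earlier results of these data known.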

Additional observations from a re-analysis of the deposited data

Results flagged for a closer look

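TRAJ41 lies between TRAJ42 and TRAJ40 and is outside the 7 segments. It was listed by 97 sequences of the SKG Trav19 library, 92 of them productive, and by 0 sequences of the other 5 libraries, WT Trav19 included. This drew attention because the count is above that of its WT library in a segment outside the group. With 92 productive sequences, TRAJ41 with Trav19 entered the counts over all Traj segments. Sequences of a rearrangement are not independent, and at the Trav19 factor of 99.8 a count of 97 carries little weight. With TRAJ41 counted among the segments, no sum changed its direction or its side of the threshold.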

How the results depend on the processing

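No paired analysis was possible because each genotype and amplicon has 1 library, and for the same reason no library could be left out. The causes of the changes below were not tested unless stated. Summed shares (SKG minus WT, points) changed most with the class and the denominator. Among unproductive sequences Trav9d-3 turned to 1.42, Trav9d-4 (-3.82) and Trav11 (3.56) passed the threshold, and Trav9-2 (2.12) and Trav9-4 (1.38) no longer did. Over every class Trav9d-3 turned to 0.213, and Trav9d-2 (1.72), Trav9d-4 (-2.53) and Trav19 (1.86) passed. With V genes listed with or without others, Trav9d-2 passed (2.37). With Fisher's exact test, which takes sequences as independent, Trav9d-2 (1.74), Trav9d-3 (-0.521), Trav9d-4 (-1.86) and Trav19 (1.81) passed as well. With the largest factor of any V gene Trav9-2 (4.20), Trav9-3 (2.82) and Trav9-4 (3.11) no longer passed. With segments 31 to 61 as the denominator Trav9d-3 turned to 2.55 and Trav9d-4 to 0.345, and Trav9d-2 (6.96) and Trav19 (2.38) passed. Trav9d-3 and Trav9d-4 were the V genes whose direction turned in any setting run. The count of pairs beyond the fold was 6 of 55 (78 of all 336), and became 13 among unproductive sequences (95 of all 342), 26 at the lower fold threshold tried (174 of 336), 2 at a ratio of 2 (31) and 3 by adjusted p (22). The change of the sum in Trav19 less that in Trav11 turned to -0.16 (log odds) among unproductive sequences. Neighbouring V genes that differed numbered 2 there instead of 4, and 5 over every class and with V genes listed with or without others (alternatives chosen after seeing the data, as was leaving Trav11 out of the correlations). By segment, TRAJ44 turned to -1.12 (Trav9d-2) and 0.59 (Trav19, log2) among unproductive sequences. Of 329 values by segment and V gene over the settings run, 288 kept their direction and side of the fold threshold. That total includes settings in which every value was kept: the first-listed J gene (55), no value added (55) and a higher minimum count (54). Among unproductive sequences only 28 of 55 were kept. There 17 values within the fold threshold in the main setting turned, as did the 2 TRAJ44 values. A further 7 passed beyond the fold and 1 fell within it. Of the 329 values, 6 changed side of the adjusted p (3 lost among unproductive sequences, 3 gained over every class). Trav11 and Trav11d alone were not run, since the lists rarely separate them.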

Other observations

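Some Trav9 sequences listed several V genes and entered the comparisons only where V genes listed with or without others were counted. Productive sequences that listed Trav9-3, Trav9d-4 or Trav9n-2 together numbered 1017 in WT, of which 234 (23.0%, Wilson 95% interval 20.5 to 25.7) used TRAJ39, and 343 in SKG, of which 37 (10.8%, 7.93 to 14.5) used TRAJ38. In each case that was the most used segment. These intervals cover counting error only. Sequences of a rearrangement are not independent, so the intervals are too narrow. TRAJ40 was the most used with Trav9-3 or Trav9d-4 in WT (666 of 9364, 7.11%), and TRAJ37 in SKG (235 of 4203, 5.59%). With most of the other lists of several V genes the most used segment lay outside the 7. Examples in WT were TRAJ56 with Trav9-3 or Trav9d-2 (386 of 6678, 5.78%) and TRAJ48 with Trav9-4 or Trav9d-4 (614 of 6356, 9.66%). The V genes with too few sequences for a comparison were Trav9-1, where the 7 segments made up 27.3% of 715 sequences in WT and 17.2% of 458 in SKG, and Trav9d-1, with 2 of 74 and 21 of 131 sequences.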
